A study of Mus musculus with 20 samples.

Results

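The regions described here are 1671 stretches of chromatin that were open in tail epidermal cells before wounding and 1 week after a first wound, and that had no peak 8 weeks after that wound or 1 week after a second one. They were chosen by presence and absence in the peak lists of the wound course: peaks of all 10 lists were merged into 101406 regions, and a region was kept if peaks of the homeostasis and 1-week lists overlapped it by at least 1 bp and none of the 8-week and second-wound lists did. They make up 4.89% of the 34171 regions of the homeostasis list and 5.2% of the 32158 regions open in both homeostasis and at 1 week, called the starting set below (Wilson 95% interval 4.96 to 5.44%). Since presence and absence in those 4 lists picked the regions, values from these lists are descriptions, and absence from a list means only that no reproducible peak was called there.

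ATAC-seq reads out open chromatin by letting Tn5 transposase insert adapters into open DNA. Tail cells labelled Lrig1 GL Sca1+ were taken from the Lrig1CreER/Rosa-TdTomato strain, where Cre is driven from the Lrig1 gene and switches on a red reporter. The groups, of 2 libraries each, were sampled in homeostasis, 1 week and 8 weeks after a first wound and 1 week after a second wound, with PRT4165 and with vehicle, after wounding with UVB and after UVB alone, and as cells cultured from a distal memory region and from a control, non-memory region 8 weeks after a first wound. PRT4165 inhibits the H2A ubiquitin ligase of the Polycomb complex PRC1. The genotype is shared by all groups. Age, sex, dose and the number of animals per library were not found in the labels.

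Lrig1 marks stem cells of the upper hair follicle, which in undisturbed skin maintain the junctional zone and sebaceous gland and after injury can move into the interfollicular epidermis. Sites that open in such cells and stay open after the tissue has healed are one form in which a wound can leave a chromatin memory. The regions described here have peaks before and early after injury and none in the later lists.

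With 1 peak list for the 2 libraries of a group, replicate spread cannot be given and no test between groups was made. Wilson intervals cover counting error over regions only, and neighbouring regions are not independent. The labels do not state read depth. The lists of the wound course covered 33788 (8 weeks) to 47891 (1 week) regions, and the other 6 covered 44621 to 71677. A region lay within 1 kb of the start of Lrig1 and of Plet1 in all 4 lists of the wound course. Of the 3 keratinocyte markers Krt5 had one in each of these lists, and Krt14 and Trp63 had none in any of them. Ly6a, which encodes Sca1, had one there in 5 of the 10 lists, all outside the wound course. Of the markers of other cell types, T cell genes had none in any list (0 of 8). In the wound course fibroblast genes had 1 to 3 of 10, endothelial genes 1 to 3 of 10, Langerhans and macrophage genes 1 to 4 of 10, with 4 at 1 week, and melanocyte genes 2 of 9, Mitf and Pmel. The part of such cells in the results was not tested. Regions at the ends of the Y-linked genes Ddx3y, Uty and Eif2s3y were present in the 1-week, second-wound, wound-and-UVB and both cultured lists and absent from the other 5, so libraries of the wound course differ in Y-linked signal in a way that the labels do not describe.

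Printed here are the promoters of the 8 members with the highest rank in homeostasis and at 1 week among those that overlap a promoter of the RefSeq table. A member can overlap the printed window only in part. Gene starts without an entry in that table could not be among them. The sequences come from RefSeq (GRCm38.p6, the assembly of mm10) and run from 250 bases before to 50 after the start, 5′ to 3′ on the strand of the gene. Capitals mark matches on either strand to AP-1 (TGANTCA), CRE (TGACGTCA), the GC box (GGGCGG), the CCAAT box (CCAAT), the TATA box (TATAAA), ETS (CCGGAAG) and the NRF1 core (TGCGCA). In Gm33841 an AP-1 and a CCAAT match overlap and appear as 1 run.
Asb8: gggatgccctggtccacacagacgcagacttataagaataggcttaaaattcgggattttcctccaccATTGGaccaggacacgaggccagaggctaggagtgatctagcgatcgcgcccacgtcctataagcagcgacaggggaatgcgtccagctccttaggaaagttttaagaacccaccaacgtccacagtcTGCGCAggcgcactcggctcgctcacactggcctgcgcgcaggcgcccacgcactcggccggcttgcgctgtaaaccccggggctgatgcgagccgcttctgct
Gm32865: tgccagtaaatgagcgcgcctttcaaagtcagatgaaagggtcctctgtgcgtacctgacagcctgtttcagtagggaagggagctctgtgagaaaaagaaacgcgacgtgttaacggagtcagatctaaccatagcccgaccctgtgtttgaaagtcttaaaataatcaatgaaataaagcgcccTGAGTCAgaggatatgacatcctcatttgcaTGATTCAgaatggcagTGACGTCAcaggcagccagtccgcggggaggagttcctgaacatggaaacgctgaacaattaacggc
Gm33841: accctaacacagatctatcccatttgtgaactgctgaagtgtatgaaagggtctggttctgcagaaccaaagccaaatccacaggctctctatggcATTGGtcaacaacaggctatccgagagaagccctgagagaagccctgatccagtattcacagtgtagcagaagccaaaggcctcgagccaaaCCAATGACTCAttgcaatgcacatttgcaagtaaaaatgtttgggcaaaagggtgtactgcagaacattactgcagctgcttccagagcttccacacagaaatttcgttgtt
Zfp108: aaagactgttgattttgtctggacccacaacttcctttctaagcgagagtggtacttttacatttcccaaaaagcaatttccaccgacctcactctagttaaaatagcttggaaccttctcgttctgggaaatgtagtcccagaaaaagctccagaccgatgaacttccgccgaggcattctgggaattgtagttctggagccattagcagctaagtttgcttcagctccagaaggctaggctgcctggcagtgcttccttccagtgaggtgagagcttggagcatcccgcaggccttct
Chst8: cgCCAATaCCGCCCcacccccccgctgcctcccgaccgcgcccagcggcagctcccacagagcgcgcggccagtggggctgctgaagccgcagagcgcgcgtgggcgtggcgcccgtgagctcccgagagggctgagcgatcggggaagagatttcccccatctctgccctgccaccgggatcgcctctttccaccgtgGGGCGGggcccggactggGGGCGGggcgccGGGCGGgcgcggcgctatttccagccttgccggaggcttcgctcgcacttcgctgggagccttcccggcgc
Gm30520: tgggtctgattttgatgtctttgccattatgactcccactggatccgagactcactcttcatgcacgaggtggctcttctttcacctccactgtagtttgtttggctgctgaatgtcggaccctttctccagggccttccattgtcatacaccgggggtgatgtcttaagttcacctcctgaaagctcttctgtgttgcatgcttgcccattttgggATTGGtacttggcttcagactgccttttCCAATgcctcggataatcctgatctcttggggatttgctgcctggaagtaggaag
Commd4: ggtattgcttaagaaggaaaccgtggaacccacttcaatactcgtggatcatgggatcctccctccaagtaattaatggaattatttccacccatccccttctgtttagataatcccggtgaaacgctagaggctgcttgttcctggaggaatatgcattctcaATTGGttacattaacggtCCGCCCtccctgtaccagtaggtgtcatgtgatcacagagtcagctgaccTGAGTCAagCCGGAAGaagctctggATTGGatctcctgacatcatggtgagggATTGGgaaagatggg
Il1a: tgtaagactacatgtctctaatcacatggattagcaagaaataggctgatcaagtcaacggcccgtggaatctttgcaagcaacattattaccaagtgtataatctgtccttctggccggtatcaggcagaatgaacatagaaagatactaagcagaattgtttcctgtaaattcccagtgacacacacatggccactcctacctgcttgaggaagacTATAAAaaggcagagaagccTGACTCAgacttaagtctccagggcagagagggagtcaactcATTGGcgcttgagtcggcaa

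These windows lie at chr15:98145653-98145952 (Asb8, minus strand), chr16:87128390-87128689 (Gm32865, minus), chr2:61533237-61533536 (Gm33841, plus), chr7:24254544-24254843 (Zfp108, plus), chr7:34812662-34812961 (Chst8, minus), chr13:50008012-50008311 (Gm30520, plus), chr9:57158250-57158549 (Commd4, minus) and chr2:129309923-129310222 (Il1a, minus). The AP-1 word was found in 4 of them, at Gm32865, Gm33841, Commd4 and Il1a. Over all 250 promoters overlapped by members it was in 10%, and over all promoters of the table in 7.81%. Zfp108 had no match to any of the 7 words. Il1a was the only one of the 8 with a TATA box. The Gm30520 member ends at chr13:50008052, with its summit 542 bp from the start, so most of the printed Gm30520 window lies outside it. Both CCAAT matches of that window lie outside the member.

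The wound course sorted the starting set into 4 classes. Besides the 1671 members, 3199 regions were absent at 8 weeks alone, 1274 after the second wound alone, and 26014 were open in all 4 lists. In the starting set, 15.1% of regions were absent at 8 weeks and 9.16% after the second wound. As a description of the same lists that chose the members, not matched for signal, 34.3% of the 4870 regions absent at 8 weeks were absent after the second wound, against 4.67% of the 27288 regions present at 8 weeks.

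Members were weak sites. The signal value is the authors' own for a peak, and what it is relative to is not stated; a region takes that of its strongest peak. Its median was 6.85 in homeostasis and 7.20 at 1 week for members, against 10.2 and 11.2 for the regions open in all 4 lists. As percentile ranks within their lists these medians are 21.7 and 28.3 for members and 60.2 and 68.6 for regions open in all 4. Members were also narrower, with a median width of 646 bp against 951 bp. Over the 5 quintiles of homeostasis signal, weakest first, members made up 13.6%, 8.35%, 3.19%, 0.840% and 0.0311% of the starting set, and the strongest quintile held 2 of them. In homeostasis 86.7% of members had a score below 830, the value usually written for an irreproducible discovery rate (IDR) of 0.01, and at 1 week 56.6% did. Just outside the rule, 2721 of the 4473 regions absent from only 1 of the later lists were held by the other one below that score.

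**Figure D1:**
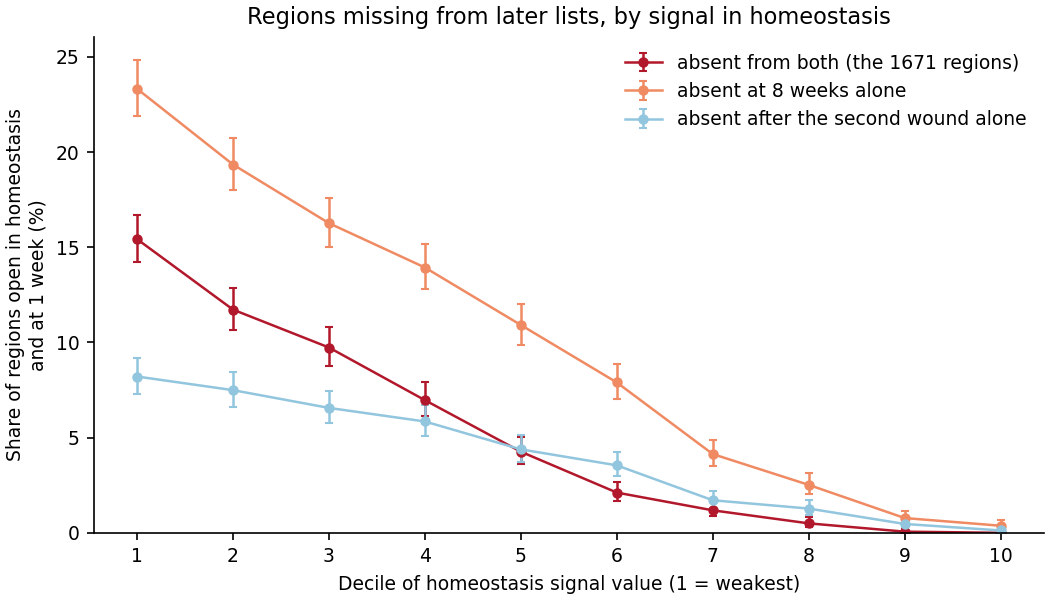
Share of the 32158 regions open in homeostasis and at 1 week (vertical axis, %) that were absent from both later lists, at 8 weeks alone or after the second wound alone, by decile of homeostasis signal value (horizontal axis); points are shares and bars Wilson 95% intervals. All 3 shares decline with signal, and members make up 15.4% of the weakest decile and 0 of the strongest.

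A smaller group of members was stronger: 98 (5.86%) ranked above the median of both lists by signal, and 147 (8.80%) reached the score of 830 in both. In the starting set these shares were 49.0% and 66.9%. With the 4 lists each limited to their 33788 strongest regions, the length of the shortest, 948 regions met the rule and 793 of them were members. Most members did not lie at the edge of a surviving peak. The nearest peak was a median of 8874 bp away in the 8-week list and 7469 bp in the second-wound list, and 14 and 18 members had one within 100 bp.

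The strongest member by the lower of its ranks in homeostasis and at 1 week lay at the start of Slc25a26, which encodes the mitochondrial carrier of S-adenosylmethionine (chr6:94499983-94500738, mm10). Its signal was 13.5 in homeostasis and 14.4 at 1 week, and the nearest peaks at 8 weeks and after the second wound were 43249 and 43523 bp away. The lists that did not enter the choice all held it, with 19.1 with PRT4165 and 20.8 with vehicle, 25.4 with wound and UVB and 22.7 with UVB alone, and 17.6 and 16.6 in the cultured distal and control lists. Its percentile rank in these 6 lists was 88.3 or higher. The site is 199833 bp from the start of Lrig1, the gene whose lineage was sorted.

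The second strongest member lay on chromosome 1 with no protein-coding gene within 100 kb (chr1:169332176-169332770). Its signal was 12.7 in homeostasis and 19.2 at 1 week. It ranked among the very strongest sites of the fresh lists outside the wound course, with a signal of 28.3 with PRT4165, 28.8 with vehicle, 31.3 with wound and UVB and 30.6 with UVB, and neither cultured list held it. Other strong members lay 10240 bp outside Lor, which encodes loricrin, a main protein of the cornified envelope, near Poc1a and Mcm9, within Fgf14, Ppm1l and Plxdc2, and at the start of Asb8. The Lor region (chr3:92069507-92070416) had a signal of 11.02 in homeostasis and 13.1 at 1 week, 14.7 with PRT4165 and 14.1 with vehicle, 16.8 with wound and UVB and 14.9 with UVB, and no peak in either cultured list.

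**Figure D2:**
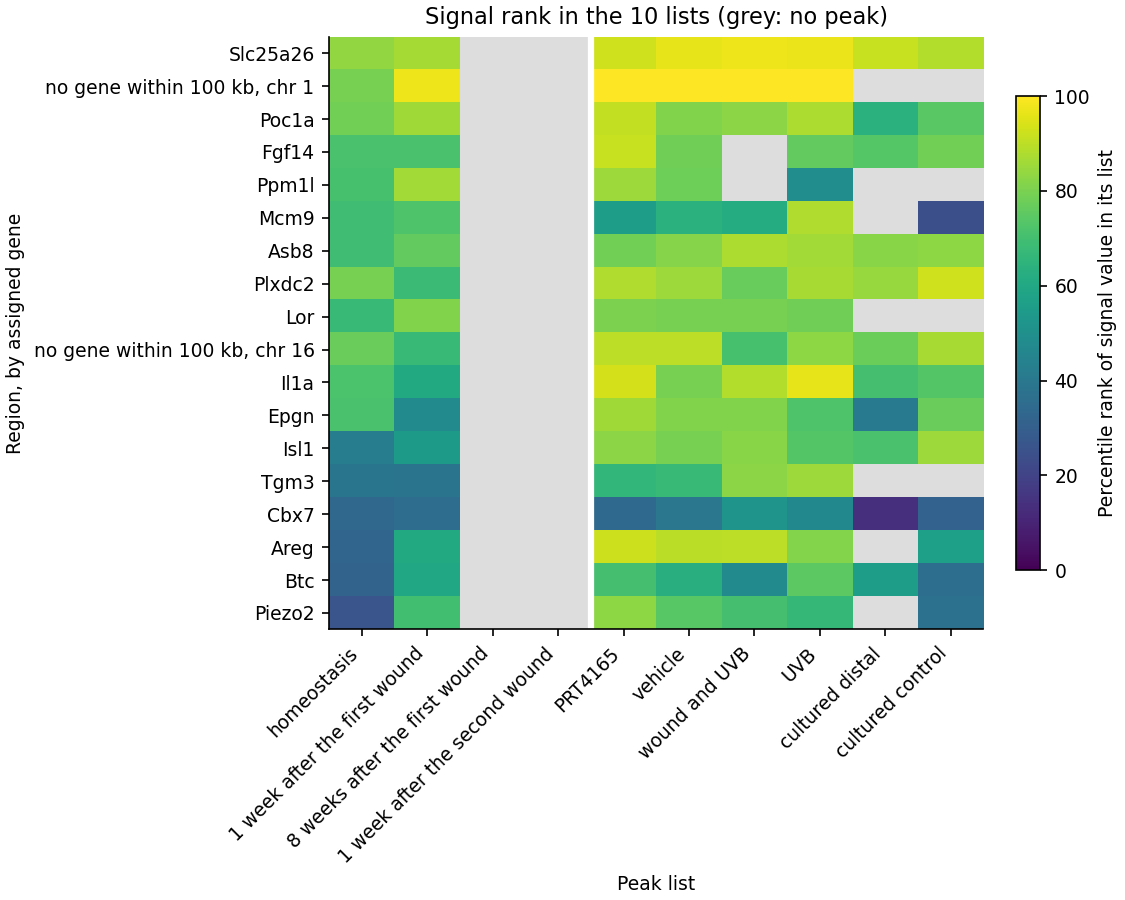
Percentile rank of the signal value within each of the 10 lists (colour, horizontal axis) for the 10 strongest members and for the strongest member of 8 genes discussed in the text (vertical axis, by assigned gene); grey means no peak. The 8-week and second-wound columns are empty by the rule, and every region shown has a peak in at least 3 of the 6 lists to the right.

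A region went to the gene that holds it or lies nearest, and position does not show which gene, if any, it acts on. At least 1 member went to 1411 of the 12787 genes with a region in the starting set (11%), 1293 of them with a single member. Tgm3 and Pde4d had the most, with 4 each. Tgm3 encodes a transglutaminase that cross-links proteins of the cornified envelope and hair, and 4 of its 9 starting regions were members, while 2 stayed in all 4 lists. The member at its start had a signal of 7.69 in homeostasis and 8.18 at 1 week, 9.48 with PRT4165 and 11.1 with vehicle, and 11.9 with wound and UVB and 10.5 with UVB. None of the 4 Tgm3 members was in a cultured list, where 44.0% of all members and 24.0% of the starting set were in neither. The member at chr2:129918176-129918784 lay 69451 bp outside the gene. Those at chr2:129998220-129998795 and chr2:130005439-130005930 had signal values of 4.34 and 6.19 in homeostasis. Pde4d, a cyclic AMP phosphodiesterase gene, had 4 members among 18 starting regions, and its strongest (chr13:109343466-109344024) had a signal of 13.2 in homeostasis and was held by all 6 other lists.

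Among the genes with 3 members, Fgfr2, which encodes an FGF receptor, had 3 of 10 starting regions. Mgat5, Nav1, Rasgrf1, Usp25, Nsmce2, Rin2, Aopep and Macrod2 had between 3 of 8 and 3 of 28. Csf2, which encodes the cytokine GM-CSF, Commd4, Klk1b24, Dennd2d, Zc2hc1c, Fgd1 and H4c14 had 2 starting regions and both were members. Klk1b24 and H4c14 belong to families of close copies, where reads can be shared between copies, and the Csf2 regions lay 45260 and 52264 bp outside the gene.

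The ligands and receptors that drive keratinocyte growth were tallied as a list of 23 receptor tyrosine kinase and EGFR ligand genes. Members made up 11 of its 106 starting regions (10.4%, 5.89 to 17.6%), beside 5.2% over all genes, and they belonged to 7 genes. EGFR ligands are cut from the cell surface and bind EGFR on the same or neighbouring cells. Of the 4 ligand genes that sit together on chromosome 5, Epgn, Areg and Btc had members and Ereg had none. Among the 8 starting regions of these genes, 4 were members, within 281 kb. They include a weak Epgn region (chr5:91037709-91038199), with a signal of 4.61 in homeostasis and 4.12 at 1 week. Peaks of the 8-week and second-wound lists lay 287 and 291 bp from that region. The region at the start of Epgn, the epigen gene (chr5:91027030-91027669), had a signal of 11.5 in homeostasis and 8.84 at 1 week, 16.2 with PRT4165 and 14.5 with vehicle, 17.1 with wound and UVB and 13.6 with UVB, and 8.75 and 13.5 in the cultured distal and control lists.

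In Areg, the amphiregulin gene, the member (chr5:91144933-91145560) had a signal of 7.68 in homeostasis and 10.2 at 1 week and was in every other list except cultured distal, with 18.8 with PRT4165 and 17.2 with vehicle. The single starting region of Btc, the betacellulin gene, was a member 49185 bp outside the gene that all 6 other lists held. Both starting regions of Ereg, the epiregulin gene, stayed in the 4 lists, with signal values of 8.14 and 13.1 at 8 weeks and 11.5 and 13.4 after the second wound. Among the receptors, Igf1r had 2 members of 14 regions, Egfr 1 of 10, and Ddr1, a collagen receptor, 1 of 12. The Egfr and Ddr1 members were weak, with signal values in homeostasis of 5.54 and 2.75, the second the lowest of any member. At the level of the list these are counts of 11 regions, 3 of them assigned to Fgfr2 and lying 16588 to 53961 bp outside it, and no test was made.

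The upper follicle list had 4 members of 36 starting regions (11.1%, 4.41 to 25.3%), and the interval holds the 5.2% of the whole starting set. Of the 36 regions 28 were in all 4 lists, beside 26014 of 32158 in the whole starting set. Lrig1 had 2 members of 11 regions, with signal values of 6.02 and 5.92 in homeostasis and 6.76 and 6.33 at 1 week, while 8 of its regions stayed in all 4 lists. Plet1, a surface protein gene of the upper follicle, and Fst, which encodes the activin antagonist follistatin, had 1 weak member each, of 6 and 3 starting regions. The basal layer list had 6 of 121 (4.96%) and the bulge list 5 of 125 (4%), both near the share over all genes.

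The differentiation list had 7 members of 79 regions (8.86%, 4.36 to 17.2%), and the interval holds the 5.2% of the whole starting set. Of the 7, Tgm3 gave 4 and Lor, Dsc1 and Grhl3 1 each. Dsc1 encodes a desmosomal cadherin of upper layers and Grhl3 a transcription factor of barrier formation. None of the 7 was in the cultured distal list and 2 were in the cultured control list; 40.5% of all 79 starting regions of these genes were in neither cultured list, against 24.0% of the whole starting set.

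Il1a, the gene for interleukin-1 alpha, an alarm cytokine that keratinocytes store and release on injury, had 1 starting region, and it was a member centred on its promoter (chr2:129309792-129310310). Its signal was 11.5 in homeostasis and 10.2 at 1 week, 19.5 with PRT4165 and 14.1 with vehicle, 19.6 with wound and UVB and 22.1 with UVB, and 12.5 and 12.8 in the cultured distal and control lists. The nearest peaks at 8 weeks and after the second wound were 7730 and 12009 bp away. The wound-activated list as a whole had 4 of 51 (7.84%, 3.09 to 18.5%), and the interval holds the 5.2% of the whole starting set. Its other members were single regions of Itga5, a fibronectin receptor subunit, Plau, which encodes urokinase, and Tnc, which encodes the matrix protein tenascin C. The Plau and Tnc members lay 20596 and 85403 bp outside those genes and were held by all 6 other lists. Their signal values were 17.6 and 15.6 in cultured distal cells and 16.9 and 17.9 in cultured control cells. With PRT4165 they were 15.3 and 17.4, and with vehicle 11.8 and 15.8. With wound and UVB they were 24.0 and 14.9, and with UVB 18.6 and 18.3.

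Signalling lists gave small counts. TGF-beta and BMP genes had 8 of 99 (8.08%, 4.15 to 15.1%), and the interval holds the 5.2% of the whole starting set. These members came from Id3 with 2 and Tgfbr1, Smad2, Bmpr1b, Tgfbr3, Smad7 and Bmp7 with 1 each. The Tgfbr3 member, in the gene for the co-receptor betaglycan, had a signal of 9.19 in homeostasis and 14.3 at 1 week, and 24.1 with PRT4165 and 16.5 with vehicle. Wnt genes had 6 of 107 (5.61%), from Wnt10a with 2 weak regions and Rspo1, Lef1, Wnt4 and Fzd10 with 1 each. Notch genes had 3 of 78 (3.85%). The Notch2 member (chr3:98080541-98081036) ranked 23.7 in homeostasis and 47.1 at 1 week, but 97.8 and 96.5 in the cultured distal and control lists. It also ranked high in the fresh lists outside the wound course. Its rank was 88.4 with PRT4165, 82.3 with vehicle, 95.3 with wound and UVB and 92.8 with UVB.

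AP-1 and immediate early genes, which code for factors induced within minutes of injury, had 4 of 97 (4.12%), with 1 region each assigned to Jun, Jund, Egr3 and Myc. Those of Jun and Myc lay 65369 and 96240 bp away, and the Jund and Egr3 ones were weak, with 3.25 and 4.71 in homeostasis. The p53 list had 2 of 56 (3.57%), assigned to Fas and Gadd45g, from which they lay 6723 and 50171 bp away. The migration list had 5 of 89 (5.62%), with 2 inside Arhgef28, 1 each inside Actn1 and Palld and 1 at 43008 bp from Ptk2. The interferon list had 2 of 65 (3.08%), which lay 4937 bp from Irf2 and 37136 bp from Nfkb1. Polycomb subunits and H2A deubiquitinases had 4 of 48 (8.33%, 3.29 to 19.6%), and the interval holds the 5.2% of the whole starting set. The single starting region of Cbx7, a PRC1 subunit that binds methylated histone H3, was a member at its start, with a signal of 7.76 in homeostasis and 7.80 at 1 week, 7.92 with PRT4165 and 8.05 with vehicle. Pcgf5 had 2 members and the deubiquitinase gene Mysm1 had 1. Over the 20 lists, 60 of the 289 genes with a starting region had a member, beside 1411 of 12787 over all genes. A gene with more starting regions has more chances of one, and the counts are not adjusted for that.

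Marker genes of other cell types had few starting regions. Endothelial, T cell, Langerhans and melanocyte lists had no member among 26, 7, 3 and 9 regions, and the fibroblast list had 1 of 7, near Thy1. No member does not mean that all regions stayed. Absent at 8 weeks alone were 14 endothelial, 1 T cell, 2 Langerhans and 0 melanocyte regions, beside 3199 of 32158 in the whole starting set. In all 4 lists were 11, 5, 1 and 8. Merkel cells are touch-sensing cells of the epidermis. Of the 3 starting regions of their markers 2 were members, beside 5.2% of the whole starting set, and 1 stayed in all 4 lists. The 2 members lay at the starts of Isl1, a transcription factor, and Piezo2, a mechanosensitive ion channel. The Isl1 region (chr13:116309291-116310259) had a signal of 8.49 in homeostasis and 9.51 at 1 week, and its nearest peak at 8 weeks was 306307 bp away. The absence of these 2 members from the later lists follows from the choice of members. Of the 8 Merkel genes, 2 (the same genes) had a region within 1 kb of their start in homeostasis, 3 at 1 week, and 0 both at 8 weeks and after the second wound, against 4 to 6 in the other 6 lists. Atoh1, Krt8, Krt18 and Krt20, which define the cell type, had none in the 4 lists of the wound course. Fewer cells of a type and less open chromatin per cell cannot be told apart in such bulk libraries, and the part of Merkel cells in these absences was not tested.

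The 6 lists that did not enter the choice show how often these sites were called elsewhere. The fresh lists held most members: PRT4165 93.2% (91.9 to 94.3%) and vehicle 95.3% (94.2 to 96.2%), wound with UVB 87.7% (86.1 to 89.2%) and UVB 96.1% (95.01 to 96.9%). In the starting set the shares were 99.1% for PRT4165, 99.5% for vehicle, 98.6% for wound and UVB and 99.5% for UVB. Regions open in all 4 lists were held in 99.8% with PRT4165, 99.9% with vehicle, 99.7% with wound and UVB and 99.9% with UVB. Of all 101406 merged regions, 65.3% were held with PRT4165, 67.1% with vehicle, 63.5% with wound and UVB and 70.7% with UVB. The fresh lists are longer than those of the wound course, and their part in these high shares was not tested.

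The cultured lists held fewer members: 43.0% for distal (40.7 to 45.4%) and 52.0% for control (49.6 to 54.4%). In the starting set the shares were 69.8% and 74.5%, and in regions open in all 4 lists 74.7% and 78.8%. Of all 101406 merged regions, a set that the cultured lists helped to build, they held 44.0% and 52.2%, close to the members' shares. Both cultures were started 8 weeks after a first wound, the time of the fresh list from which members are absent. Both cultured lists held 653 members, distal alone 66, control alone 216, and neither 736 (44.0%). Among members held by 1 cultured list, 76.6% were in the control list (71.3 to 81.2%), and in the starting set this share was 80.3%, so it is near the background.

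**Figure D3:**
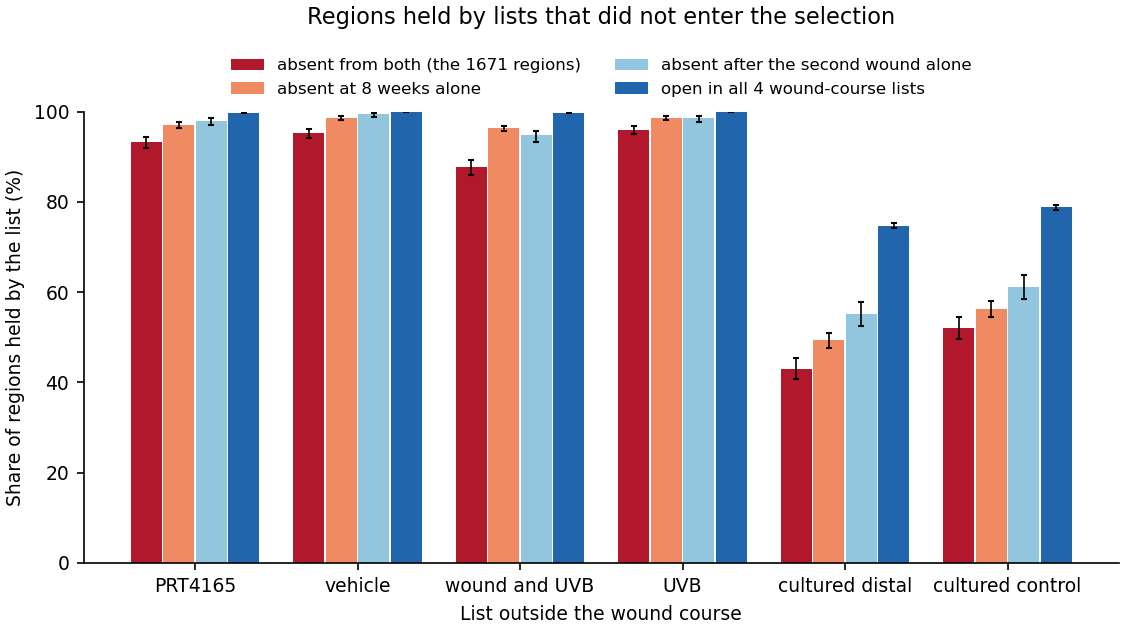
Share of regions (vertical axis, %) held by each of the 6 lists outside the wound course (horizontal axis) for the 1671 members, regions absent at 8 weeks alone, regions absent after the second wound alone, and regions open in all 4 lists; bars are shares with Wilson 95% intervals. Members are the lowest of these 4 classes in every list, with 43.0% and 52.0% in the cultured distal and control lists.

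Because members had low signal in homeostasis, the shares are also given by quintile of that signal, while signal at 1 week and width were not matched. Cultured distal cells held 43.0% of members, against 63.4% of regions open in all 4 lists weighted to the members' quintiles of homeostasis signal. In cultured control cells these shares were 52.0% of members and 69.0% of the weighted regions, and with wound and UVB 87.7% of members and 99.5% of the weighted regions. What part low signal had in the difference was not tested. In the weakest quintile the cultured distal list held 38.7% of members (35.5 to 41.99%) and 60.1% of regions open in all 4 (58.5 to 61.7%). In the next quintiles up these were 45.1% and 64.5%, then 53.2% and 70.4%, then 51.9% and 79.0%. The members had lower shares than matched regions open in all 4 in each of the 4 weaker quintiles and in both cultured lists. Regions absent at 8 weeks alone, weighted the same way, were closer to the members, with 47.7% in cultured distal and 54.8% in cultured control cells.

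**Figure D4:**
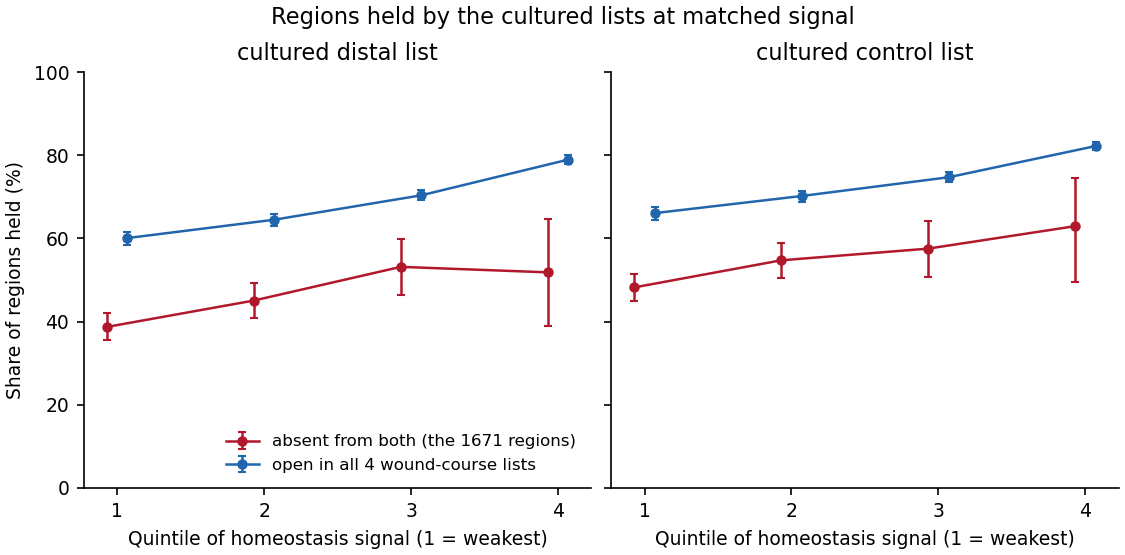
Share held by the cultured distal list (left) and cultured control list (right) for members and for regions open in all 4 lists, by quintile of homeostasis signal (horizontal axis; the strongest, with 2 members, is left out); bars are Wilson 95% intervals. Members lie below the regions open in all 4 at every point.

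Where the fresh lists held a member, its median rank was 46.1 with PRT4165 and 47.6 with vehicle, 44.6 with wound and UVB and 48.8 with UVB, against 21.7 in homeostasis. Regions open in all 4 lists at matched homeostasis signal had 44.2, 46.7, 38.9 and 43.8 in those lists in the same order. Values for matched regions are not plain medians but means of quintile medians, weighted to the members' quintiles of homeostasis signal. In the cultured lists members ranked 35.9 (distal) and 37.9 (control), and matched regions 36.9 and 41.6. These ranks are among regions the list holds, and lists differ in length.

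Some members were in only 1 list of a pair. Of those held by only 1 of the UVB lists, 27 were in wound with UVB and 166 in UVB alone, which is 86.0% in UVB alone (80.4 to 90.2%), beside 81.6% in the starting set, and the interval holds that share. With PRT4165 and without vehicle there were 56, and with vehicle and without PRT4165 there were 91, which is 61.9% in vehicle alone (53.8 to 69.4%), beside 66.8% in the starting set. All 6 lists held 546 members (32.7%), beside 67.4% of the starting set. Another 555 (33.2%) were in all 4 fresh lists and neither cultured one, beside 22.6% of the starting set. This share was 37.2% for regions absent at 8 weeks alone and 31.4% for those absent after the second wound alone, so it is not particular to members. In none of the 6 were 2 members, 1 within Bicral and 1 within Slc6a4. Both of these were weak, with signal values in homeostasis of 4.80 and 3.97.

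Fewer members than other starting regions lay at gene starts. The summits of 320 (19.2%, 17.3 to 21.1%) were within 1 kb of a start, or of either end for genes whose start the reference does not list, against 37.2% of regions open in all 4 lists (36.6 to 37.8%) and 33.8% of the starting set. Regions absent at 8 weeks alone had 19.9% and those absent after the second wound alone 17.4%. At matched homeostasis signal the share for regions open in all 4 was 25.9%. The median distance to a start was 10953 bp for members and 5969 bp for regions open in all 4, and 49.7% of member summits lay inside a protein-coding gene, against 51.5%.

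**Figure D5:**
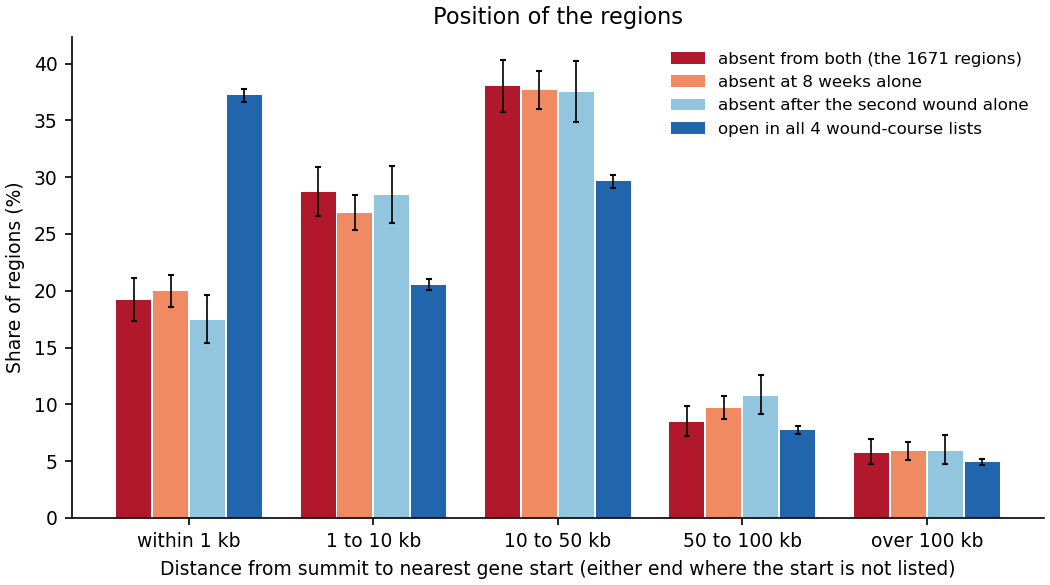
Share of regions (vertical axis, %) by distance from summit to the nearest gene start (horizontal axis) for members, regions absent at 8 weeks alone, regions absent after the second wound alone and regions open in all 4 lists, with Wilson 95% intervals. Within 1 kb of a start lie 19.2% of members and 37.2% of regions open in all 4 lists.

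Members were spread over the genome, with a median of 275717 bp to the next member and 263 within 50 kb of one. On chromosome X, 46 of the 587 starting regions were members (7.84%, 5.93 to 10.3%), against 5.15% on the autosomes (4.91 to 5.40%). Starting regions on X had a median rank of 52.2 in homeostasis, against 52.6 on autosomes, and of 71.3 at 1 week, against 62.4. Of X regions 13.6% were absent after the second wound, against 9.08% on autosomes. At 8 weeks 17.0% of X regions were absent (14.2 to 20.3%), against 15.1% on autosomes, which the interval holds. Y-linked signal differs between these lists as given above, and its part in the X share was not tested. Chromosome 19 had the lowest share of the autosomes, 3.44%, and chromosome 10 the highest, 6.05%.

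At gene starts the sequence could be read. Members overlapped 250 promoters of 228 genes in the RefSeq table, which lacks chromosome 18. Their median GC content was 62.3% and their observed over expected CpG ratio 0.714, against 62.0% and 0.798 for the 10705 promoters overlapped by regions open in all 4 lists, and 52.7% and 0.384 for all 32851 promoters. The AP-1 word was in 10% of member promoters (6.87 to 14.3%), 4.98% of those open in all 4 (4.58 to 5.41%) and 7.81% of all promoters. Promoters overlapped by regions absent at 8 weeks alone had it in 6.96% (5.17 to 9.31%). The member interval holds the share of all promoters, and the motif shares are not matched for signal. Against regions open in all 4, the ETS word ran the other way. It was in 6% of member promoters (3.67 to 9.66%), 19.9% of those open in all 4 (19.2 to 20.7%) and 8.86% of all. For regions absent at 8 weeks alone its share was 12.2% (9.82 to 15.1%). Among promoters that hold the summit, the ETS word was in 9.52% for members (5.76 to 15.4%) and 22.9% for regions open in all 4. The AP-1 word was in 12.2% (7.89 to 18.5%) and 5.31% of these promoters.

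The GC box was in 58.0% of member promoters, 68.4% of those open in all 4 and 35.7% of all. The TATA box was in 11.6%, 5.64% and 13.6%, the GATA word (AGATAA) in 9.20%, 5.08% and 11.2%, the NRF1 core in 12.0%, 15.0% and 7.76%, and the CRE in 3.20%, 3.49% and 1.79%. The CCAAT box was in 33.2%, 39.1% and 37.4%, the E-box (CANNTG) in 60.8%, 61.4% and 72.3%, the RUNX word (TGTGGT) in 14.0%, 11.3% and 16.8%, and the TEAD word (GGAATG) in 12.8%, 11.4% and 14.7%. A match is a word in the window and does not show that a factor binds there. Regions away from promoters were not read, because no genome sequence was used here.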

How the data were processed

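ATAC-seq libraries from 20 samples were grouped by the treatment in the labels, 2 per group, and the authors deposited 1 peak list per group. Each deposited list gives a score (540 or higher), a signal value, of unstated reference, and a −log10 p (2.00 or higher) per peak. The authors' names for the lists point to a reproducibility filter between replicates. Per the submitters' processing notes, coordinates are on mm10. The aligner, peak caller, filters, depth and any Tn5 shift: not given in the sources used here. No list holds values per library, so replicates could not be compared.

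Peaks on chromosomes 1 to 19, X and Y were merged where they shared at least 1 bp, and signal value, rank and summit of a region are those of its strongest peak. Ranks are percentiles among the regions of a list. Shares have Wilson 95% intervals, and no test was made. A region went to the shortest protein-coding gene that holds its summit, failing that to the gene whose end was closest, up to 100 kb, in the GRCm38.p6 reference table (21883 genes on these chromosomes). Distances were taken to RefSeq starts, or to both ends of the 4392 genes that the promoter table lacks. Of 340 listed genes 337 were found. The text names genes by rule: the 20 with most members, up to 3 per list, the 10 strongest members and the 8 strongest at a promoter; other genes of a list and the 4 chromosome 5 ligand genes were named after their values were seen. One gene that the rule names is not reported here. The members and the gene lists were chosen with earlier results of these data known. The search for motifs around summits away from promoters was planned only for a genome of the build and was not run. Python 3.11.15, numpy 2.4.6, pandas 2.3.3, scipy 1.17.1 and matplotlib 3.10.9 were used. Counts of members and merged regions equalled those of bedtools 2.31.1, and the code was tested on simulated data: with the later peaks of 500 regions removed, all 500 were found as members. Alternatives were a minimum coverage, stricter scores, lists of equal length, other merged regions, other windows and promoters holding the summit.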

Additional observations from a re-analysis of the deposited data

How the results depend on the processing

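No paired analysis was possible because each group has 1 list and no values per library. Of 52 alternative values, 19 kept within the main interval, or within 1.5 times for counts, and 33 moved. Where a list had to cover at least 50% of a region, 1918 regions met the rule, and the share held fell to 89.5% for PRT4165, 93.7% for vehicle and 85.3% for wound and UVB, with 24.3% within 1 kb of a start and a median rank of 25.7. With an IDR of 0.01 in all lists there were 1271 members, only 147 of them among the main ones, held in 97.7% (PRT4165), 98.3% (vehicle), 94.5% (wound and UVB), 98.2% (UVB), 53.03% (cultured distal) and 61.0% (cultured control), with 27.0% near a start and rank 24.4. With that IDR for presence only, 147 members remained, in 10 list genes, held in 99.3% (PRT4165 and vehicle), 93.2% (wound and UVB), 98.6% (UVB), 61.9% (distal) and 65.3% (control), with 23.8% near a start and rank 47.1. Lists of equal length gave 948 members, held in 95.3% (PRT4165), 97.0% (vehicle), 89.3% (wound and UVB), 96.9% (UVB) and 47.5% (distal), with rank 30.2. Merged homeostasis regions gave 21.6% near a start, a window of 500 bp 15.1%, and RefSeq starts alone, chosen after seeing the data, 15.3%. In each of these settings the cultured lists held a lower share of members than of regions open in all 4 lists. The labels do not state read depth, so absence from a list cannot be told from low depth.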
